A study of Rattus norvegicus with 6 samples.

Results

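The genes described here are 10 transcription factors of endothelial identity, Erg, Fli1, Ets1, Sox7, Sox18, Klf2, Klf4, Tal1, Gata2 and Mef2c. They were chosen by gene name from the 33566 rows of the deposited count table. Each name matched 1 row, and all 10 genes had enough reads to be among the 14603 genes tested. RNA was sequenced from primary rat brain microvascular endothelial cells (rBMECs), the cells that line brain capillaries and form the blood–brain barrier. By the labels they came from the cerebral cortex, and by the paper's methods from the forebrain, of SD rats 18 to 22 days of age, and they were purified in culture and used after passage. In the Hcy group, 3 libraries came from cells given homocysteine (Hcy) for 24 h, and in the Veh group, 3 libraries came from cells given its solvent, sterile water, as vehicle. The sample labels give an Hcy dose of 100 μM, and the treatment text also mentions a prepared solution of 50 μM. No gene was targeted, and the cells of both groups carried no named allele. The replicates are described as biological, but neither the labels nor the paper's methods say whether they came from separate isolations, so p-values measure only the spread between these libraries.

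ETS factors bind a short GGAA core, and ERG, FLI1 and ETS1 keep genes such as the VE-cadherin gene Cdh5 active in endothelium. SOX7 and SOX18 belong to the SOXF group, which acts in vessel growth and arterial fate. KLF2 and KLF4 are induced by steady blood flow through the kinase ERK5 and MEF2 factors, favour the genes of nitric oxide synthase and thrombomodulin, and restrain adhesion molecules. TAL1 and GATA2 work in complexes with LMO2 and LDB proteins.

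Klf4 and Klf2 fell with Hcy, and the ETS and SOXF factors, Tal1 and Mef2c did not pass the test. Klf4 was 48.4% lower and Klf2 30.5% lower in Hcy than in Veh. Gata2 was 24.5% lower and missed the threshold by a narrow margin. Of the 10 factors, 2 passed an adjusted p of 0.05 in edgeR's quasi-likelihood test, both of them downregulated. Over all genes tested, 2.34% passed this threshold, 1.01% lower and 1.32% higher in Hcy. The study additionally required a log2 fold change of 1 or more in either direction, which 0.486% of all genes and 0 of the 10 factors met. At an unadjusted p of 0.05 the factors that passed numbered 3, where 13.4% of all genes did, and by DESeq2's adjusted p they also numbered 3, where 4.19% did. DESeq2 likewise called 0 of them when the fold change was required. The median log2 fold change was 0.03 over the 10 factors and -0.02 over all genes tested.

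The 6 libraries held 14024997 to 16764584 counted reads. A principal component with 30.5% of the variance separated Hcy from Veh, and another with 26.2% set Veh replicate 3, at 30.4, apart from Veh replicates 1 and 2, at -15.9 and -19.0. No pair of libraries within a group agreed within sampling noise. Of the factors, 7 of 10 were lowest in Veh replicate 3 among the Veh libraries in CPM (read counts scaled to library size with TMM factors), as were 38.6% of all genes. In TPM (counts per gene length, scaled to the same sum in each library), 10 of 10 factors were lowest there, as were 58.3% of all genes.

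Endothelial markers were abundant. In Veh the mean level was 913 TPM for Emcn, which encodes the surface sialomucin endomucin, 818 TPM for Cdh5 and 761 TPM for Eng, the TGF-beta co-receptor endoglin. Of 16 endothelial markers, 14 were tested and 0 passed an adjusted p of 0.05 with edgeR. In estimate 11 were higher and 3 lower in Hcy, with a median of 0.13, and 7 met an unadjusted p of 0.05. The log2 fold changes were 0.13 for Emcn, 0.13 for Cdh5 and -0.27 for Eng, and that of Cdh5 was 0.03 without Veh replicate 3. DESeq2 passed 4 of the markers, of which Vwf, Kdr and Dll4 were higher (adjusted p values of 0.00956, 0.0490 and 0.00184) and Eng was lower (adjusted p = 0.0387). Eng also passed with edgeR without Veh replicate 3 (adjusted p = 0.00751). Cldn5, the gene of the tight junction protein claudin-5, had 0 counts in every library, and whether its row could collect reads was not tested. The paper reports claudin-5 protein in rBMECs by Western blot. Pecam1 has no row under its name, and an unnamed row matched to the PECAM-1 protein held 788 ± 27.9 TPM (SD, n = 3) in Veh and 1017 ± 40.5 TPM (SD, n = 3) in Hcy, a difference that did not pass (log2 fold change 0.34, edgeR adjusted p = 0.0563). Among 12 brain endothelial markers, 11 were tested, of which 1 was higher and 10 were lower in Hcy in estimate, with a median of -0.09, and 4 passed with DESeq2. Slc7a5, which encodes a large amino acid transporter, rose (log2 fold change 0.40, edgeR adjusted p = 0.0297), and Lsr, which encodes a tricellular junction protein, fell (log2 fold change -0.73, edgeR adjusted p = 0.0156). The brain endothelial genes of highest level were Bsg, Slc2a1 and Itm2a, with log2 fold changes of -0.29, -0.32 and -0.02, and they did not pass with edgeR. Bsg and Slc2a1 passed with DESeq2, with adjusted p values of 0.0193 and 0.00421, and with edgeR without Veh replicate 3, with 0.0315 and 0.0111. Slc2a1 also passed with edgeR with no filter on low counts (0.0405) and with the filter of filterByExpr (0.0450). Slc7a5 did not pass in any fit that left out a library other than Veh replicate 3, nor did Lsr without Hcy replicate 1, 2 or 3 or Veh replicate 1, and their adjusted p reached 0.148 and 0.0799.

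Of the markers of other cell types, the pericyte and smooth muscle list and the epithelial list were high, with summed levels of 1676 to 1882 TPM and 508 to 567 TPM in Veh, mostly from Tagln and Krt7. Many markers of neural, immune and fibroblast lists were near the floor of 3 counts, which corresponded to 0.178 to 0.215 CPM and covers counting error only. Ptprc, Cx3cr1 and Tyrobp of microglia, Rbfox3, Snap25 and Nefl of neurons, and Aqp4 and Slc1a2 of astrocytes had 0 counts in every library. The highest of these lists in Veh were Gja1 of the astrocyte list at 81.5 TPM, Cnp of the oligodendrocyte list at 42.5 TPM and Col1a1 of the fibroblast list at 21.4 TPM. Mog of the oligodendrocyte list stood at 11.4 TPM, Fbln1 and Col3a1 of the fibroblast list at 6.11 and 2.97 TPM, Tubb3 of the neuron list at 5.20 TPM and Cd68 of the microglia list at 1.32 TPM. Below 1 TPM in Veh were Mbp of the oligodendrocyte list, S100b and Slc1a3 of astrocytes, Syt1 of neurons, and Aif1 and Csf1r of microglia. None of the astrocyte, oligodendrocyte, fibroblast, neuron and microglia markers tested passed with edgeR or DESeq2, while 3 fibroblast markers, 1 astrocyte marker and 1 neuron marker met an unadjusted p of 0.05.

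The 250 bases upstream of the start of Klf4, Gata2 and Erg are shown because Klf4 fell most, Gata2 lay next to the threshold, and Erg was the most abundant factor and did not pass. They come from the RefSeq promoter table of build GRCr8, which held 4 of the 10 factors (Tal1 was the other). The first start listed for each gene was used, and whether transcription began there in these cells was not tested. Capitals mark the ETS core GGAA. They also mark the motif AGATAA, which GATA factors bind. Both were searched on either strand, so that the reverse complement of a motif is in capitals too. Matches of these motifs did not overlap each other in the windows.
Klf4, chr5:75078593-75078842, minus strand: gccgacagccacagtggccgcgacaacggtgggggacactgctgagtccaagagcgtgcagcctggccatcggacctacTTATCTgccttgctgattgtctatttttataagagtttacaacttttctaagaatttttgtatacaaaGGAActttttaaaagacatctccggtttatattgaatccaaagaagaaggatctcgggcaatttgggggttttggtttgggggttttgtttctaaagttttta
Gata2, chr4:122216031-122216280, plus strand: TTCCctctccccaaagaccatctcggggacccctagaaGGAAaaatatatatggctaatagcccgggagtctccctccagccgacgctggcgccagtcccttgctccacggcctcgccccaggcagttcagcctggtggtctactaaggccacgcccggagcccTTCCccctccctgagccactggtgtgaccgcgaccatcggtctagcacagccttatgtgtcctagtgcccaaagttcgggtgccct
Erg, chr11:48251567-48251816, minus strand: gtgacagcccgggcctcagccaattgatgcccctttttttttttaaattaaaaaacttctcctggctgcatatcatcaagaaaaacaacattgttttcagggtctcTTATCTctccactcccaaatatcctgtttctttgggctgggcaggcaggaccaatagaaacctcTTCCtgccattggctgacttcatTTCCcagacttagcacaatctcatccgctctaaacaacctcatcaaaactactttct

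The Klf4 window held 1 GGAA and 1 AGATAA, the latter ending 165 bases before the start. The Gata2 window held 3 GGAA and no AGATAA, and the Erg window held 2 GGAA and 1 AGATAA, which ended 138 bases before the start. Of the 33465 upstream windows of this length, 93.2% held the ETS core and 10.3% held the GATA motif. The KLF motif CACCC, present in 49.2% of windows, occurred once in the Gata2 window and not in those of Klf4 or Erg. The SOX motif ACAAT, present in 30.0% of windows, occurred 1 time upstream of Klf4 and 2 times upstream of Erg. The MEF2 consensus, present in 2.96% of windows, was not found in the 4 windows held. E-boxes (CANNTG), the bHLH motif, occurred 2 times upstream of Tal1 and 1 time upstream of Erg, against 65.5% of windows with at least 1. These are matches of letters only.

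Compared per gene length, the factors spanned a 26.3-fold range of level. Erg was highest, with a mean of 296 TPM over the 6 libraries, above 96.3% of the genes tested. Ets1 followed at 187 TPM and Sox18 at 119 TPM, and in both groups the libraries of Erg, Ets1 and Sox18 did not overlap one another. The libraries of Sox18 and Klf2, next in order in Veh, overlapped there. Fli1, Klf2 and Sox7 lay close together in Veh, at 79.6 ± 17.2, 91.7 ± 8.90 and 71.0 ± 11.3 TPM (SD, n = 3), and the ranges of Fli1 and Klf2 and of Fli1 and Sox7 overlapped there. In Hcy the libraries of these genes did not overlap, and their order was Fli1 at 92.6 ± 2.58 TPM, Sox7 at 79.0 ± 2.13 TPM and Klf2 at 64.7 ± 0.977 TPM (SD, n = 3). Klf2 was thus the factor of rank 4 in Veh and of rank 6 in Hcy. Klf4 and Gata2 were lower, at 28.7 ± 2.90 and 22.7 ± 2.07 TPM in Veh (SD, n = 3), and in Hcy their libraries overlapped, at a mean of 15.0 TPM for Klf4 and 17.3 TPM for Gata2. Mef2c, at a mean of 11.3 TPM, and Tal1, at 11.2 TPM, could not be told apart in either group and lay near the middle of all genes tested, above 49.6% and 49.4% of them.

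**Figure D1:**
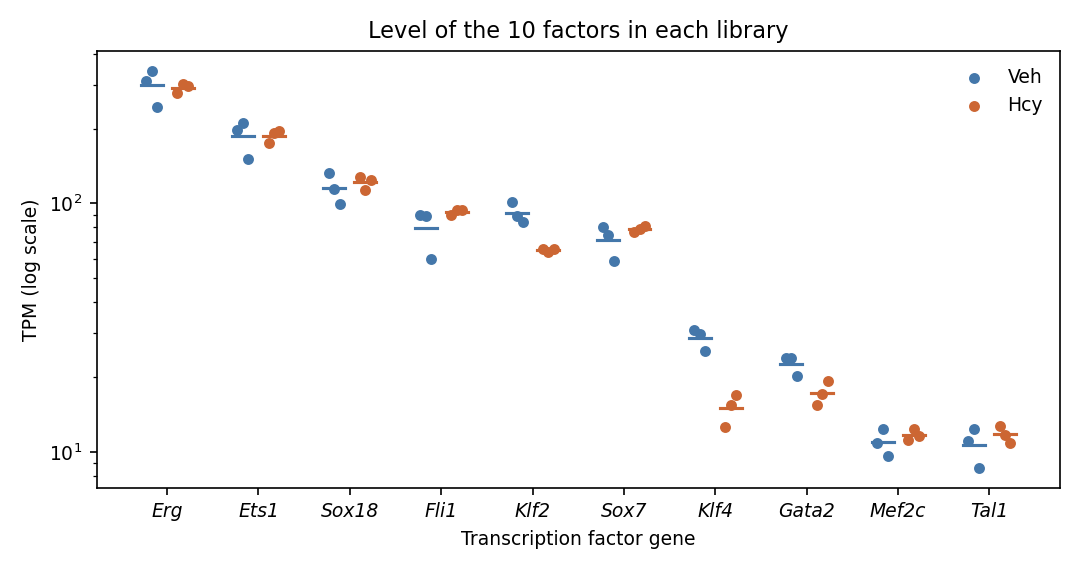
TPM of each factor (log scale) in the 3 Veh and 3 Hcy libraries, as points, with the group mean as a line, ordered by mean level from Erg at 296 TPM to Tal1 at 11.2 TPM. The Hcy points of Klf2, Klf4 and Gata2 lie below all of their Veh points, and Veh replicate 3 gives the lowest Veh point of every factor.

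Erg, on chromosome 11 from 35646116 to 35749594, did not differ between groups by more than the spread of the libraries. It had 393, 432 and 355 CPM in Veh replicates 1 to 3 and 370, 387 and 382 CPM in Hcy replicates 1 to 3. All 3 Hcy libraries lay inside the range of the Veh libraries. The log2 fold change was -0.05 with a 95% interval of -0.23 to 0.13 (edgeR adjusted p = 0.862). Positions of genes are given as the deposited table lists them. That table names no build, and its positions reach 282724300 on chromosome 1, beyond the end of that chromosome in mRatBN7.2, the build that the submitters' processing notes name.

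Ets1 and Fli1 are neighbours on chromosome 8, on opposite strands, from 33816386 to 33879625 and from 33543258 to 33661049. Ets1 had 522, 556 and 457 CPM in the Veh libraries and 486, 516 and 527 CPM in the Hcy libraries. As with Erg, the Hcy values fell within those of Veh, and the log2 fold change was -0.01 (95% interval -0.19 to 0.18, edgeR adjusted p = 0.987). Fli1 had 86.3, 85.3 and 65.5 CPM in Veh and 90.1, 91.6 and 92.0 CPM in Hcy. In CPM, though not in TPM, each Hcy library of Fli1 was above each Veh library, a pattern that 10.8% of all genes showed, and the difference did not pass the test (log2 fold change 0.21, 95% interval -0.04 to 0.45, edgeR adjusted p = 0.475). Much of the Veh spread of Fli1 came from replicate 3, and without that library its log2 fold change was 0.09.

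Other ETS genes were measured from a list of 21, of which 18 were tested. Only Etv4, a factor of the PEA3 group that acts downstream of growth factor signals, passed an adjusted p of 0.05. Etv4 had 29.4, 32.6 and 28.9 CPM in Veh and 44.2, 41.2 and 44.6 CPM in Hcy, with no overlap between groups. It rose by a log2 fold change of 0.52 (standard error 0.09, edgeR adjusted p = 0.0165). Its adjusted p lay above the threshold, between 0.0613 and 0.113, without Hcy replicate 1, 2 or 3 or Veh replicate 1. Elk3 and Elf1, the ETS genes of highest level on this list, had log2 fold changes of -0.10 and -0.09 and did not pass. That of Elf1 ran from -0.175 to -0.003 with a library left out. The list held 9 genes higher and 9 lower in Hcy.

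Sox7, on chromosome 15 from 47293699 to 47300460, had 138, 129 and 116 CPM in Veh and 140, 138 and 144 CPM in Hcy. Veh replicate 1 lay level with Hcy replicate 2, so the groups overlapped, and the log2 fold change was 0.14 (95% interval -0.05 to 0.32, edgeR adjusted p = 0.528). Sox18, on chromosome 3 from 177177310 to 177179127, had 114, 97.9 and 97.9 CPM in Veh and 115, 98.9 and 109 CPM in Hcy. Its groups overlapped almost in full, with a log2 fold change of 0.06 (95% interval -0.15 to 0.27, edgeR adjusted p = 0.845). This fold change ran from 0.01 to 0.14 with a library left out. Sox17, the remaining SOXF gene and a regulator of arterial identity, had 112, 103 and 100 CPM in Veh and 131, 129 and 125 CPM in Hcy. All Hcy libraries of Sox17 were above all Veh libraries, yet the log2 fold change of 0.29 did not pass (edgeR adjusted p = 0.0983), while DESeq2 gave an adjusted p of 0.0289 and edgeR without Veh replicate 3 one of 0.0457. Of 11 further SOX genes listed, Sox17 included, 4 were tested and 0 passed with edgeR. By DESeq2 and by an unadjusted p of 0.05, 1 passed. Sox13, the second in level, had a log2 fold change of 0.05.

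Klf4, a zinc finger factor on chromosome 5 from 72283313 to 72287669, showed the largest difference of the 10 factors. It had 649, 581 and 524 counts in Veh replicates 1 to 3 and 230, 291 and 362 counts in Hcy replicates 1 to 3. Scaled for depth, these were 38.5, 37.0 and 36.3 CPM in Veh and 16.5, 19.5 and 21.6 CPM in Hcy. The highest Hcy library was far below the lowest Veh library, and the Veh libraries lay close together, with a coefficient of variation of 3.08% against 13.3% in Hcy. Klf4 fell by 0.95 on the log2 scale (95% interval -1.20 to -0.70, standard error 0.11, edgeR adjusted p = 0.00415), a 1.94-fold lower level. By p it was gene 45 of the 14603 tested. The fold change lay just short of the 2-fold limit that the study used, and its interval ran across that limit. In the 6 fits that leave out a library, the adjusted p of Klf4 stayed between 0.00107 and 0.0304, and without Hcy replicate 3, the Hcy library of highest Klf4, the log2 fold change was -1.05 and met both thresholds.

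Klf2, on chromosome 16 from 19223087 to 19225037, had 951, 776 and 776 counts in the Veh libraries and 530, 534 and 621 counts in the Hcy libraries. In CPM these were 56.5, 49.4 and 53.7 in Veh and 38.1, 35.9 and 37.1 in Hcy. The groups were well apart, and the Hcy libraries differed from one another by little, with a coefficient of variation of 2.97%. Klf2 fell by 0.52 on the log2 scale (95% interval -0.70 to -0.34, standard error 0.08, edgeR adjusted p = 0.0129), a 1.44-fold lower level. Its adjusted p rose above the threshold, to 0.0660, 0.0695, 0.0825 and 0.0584, without Hcy replicate 1, 2 or 3 or Veh replicate 1, and its log2 fold change then lay between -0.55 and -0.48. Without Veh replicate 3 the adjusted p was 0.00374.

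Groups of libraries that did not overlap, with Hcy lower, were seen for 3 of the 10 factors, Klf4, Klf2 and Gata2, and for 9.27% of all genes tested. Within each library, the ratio of Klf4 to Klf2 in TPM was 0.305, 0.334 and 0.301 in Veh and 0.194, 0.243 and 0.260 in Hcy. Klf4 thus made up a smaller part relative to Klf2 in every Hcy library, by 0.44 on the log2 scale. An exact two-sided permutation test of this ratio gave p = 0.1, the smallest value that 3 against 3 libraries allow, and p = 0.15 after adjustment over the 3 ratios compared. The ratio of Klf4 to Gata2 was likewise lower in each Hcy library, at 0.865 ± 0.0457 against 1.27 ± 0.0258 (SD, n = 3, exact permutation p = 0.1). That of Klf2 to Gata2 overlapped between groups, at 3.76 ± 0.422 against 4.05 ± 0.277 (SD, n = 3, exact permutation p = 0.4). These ratios were chosen after the values of the genes had been seen.

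**Figure D2:**
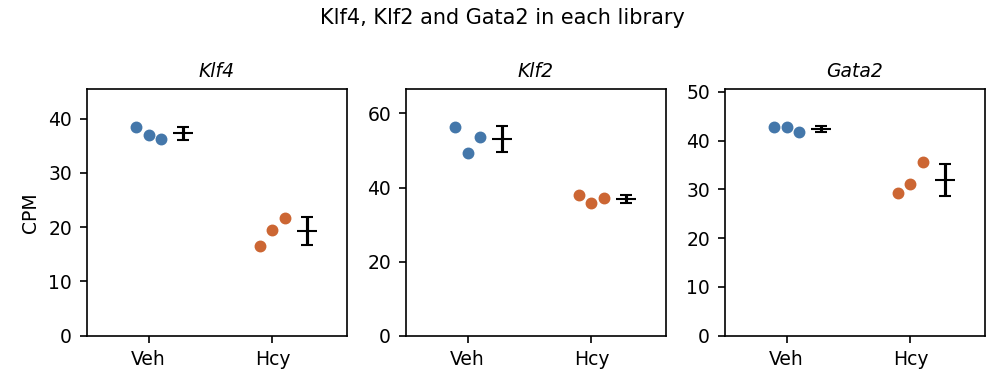
CPM of Klf4, Klf2 and Gata2 (linear axes from 0) in each Veh and Hcy library, as points, with the mean and SD of the 3 libraries beside them. No Hcy point reaches a Veh point: the nearest pair is that of Gata2, at 35.6 CPM in Hcy replicate 3 and 41.7 CPM in Veh replicate 3.

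The other KLF genes did not pass the test: of 15 listed, 11 were tested and 0 had an adjusted p of at most 0.05 with edgeR or with DESeq2. At an unadjusted p of 0.05, 1 passed. Klf6, a gene induced by injury, had 74.4, 74.9 and 44.1 CPM in Veh and 72.7, 86.0 and 80.1 CPM in Hcy. Its log2 fold change of 0.30 rested on Veh replicate 3 and was 0.09 without that library. Klf10, which is induced by TGF-beta, had 63.5, 62.8 and 62.4 CPM in Veh and 56.4, 50.9 and 51.6 CPM in Hcy. Every Hcy library of Klf10 was lower, and the log2 fold change of -0.25 missed the threshold (edgeR adjusted p = 0.147). The median over the 11 genes was -0.04.

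Genes that KLF2 and KLF4 are known to regulate were measured from a list of 11, chosen with earlier results of these data known. Of these, 10 were tested and 4 passed, 1 lower and 3 higher in Hcy, where 2.34% of all genes tested passed. DESeq2 passed 6, where 4.19% of all genes passed, and 7 met an unadjusted p of 0.05, where 13.4% did. Thbd, which encodes the anticoagulant receptor thrombomodulin and is induced by these factors, had 69.9, 75.4 and 62.4 CPM in Veh and 47.9, 43.3 and 38.4 CPM in Hcy. Thbd fell by 0.68 on the log2 scale (standard error 0.10, edgeR adjusted p = 0.0131), with no overlap of the groups. Sele, which encodes the leukocyte adhesion molecule E-selectin and is repressed by these factors, had 19.7, 26.6 and 18.1 CPM in Veh and 41.7, 45.4 and 40.6 CPM in Hcy. Sele rose by a log2 fold change of 0.99 (standard error 0.14, edgeR adjusted p = 0.0110), the lowest Hcy library standing well above the highest Veh library. Vcam1, another adhesion molecule gene, rose from a low level, from 3.44 ± 0.0555 to 7.71 ± 1.22 CPM (SD, n = 3), by a log2 fold change of 1.16 (edgeR adjusted p = 0.0129). Plat, which encodes the tissue-type plasminogen activator, rose from 621 ± 35.6 to 814 ± 52.0 CPM (SD, n = 3), by a log2 fold change of 0.39 (edgeR adjusted p = 0.0310).

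Nos3, the endothelial nitric oxide synthase gene, which KLF2 and KLF4 also favour, stood at 770 ± 35.3 CPM in Veh and 715 ± 12.2 CPM in Hcy (SD, n = 3). Edn1, which encodes the vasoconstrictor endothelin-1, stood at 553 ± 59.1 CPM in Veh and 548 ± 33.9 CPM in Hcy (SD, n = 3). Their log2 fold changes of -0.11 and -0.01 did not pass. Angpt2, which encodes the TIE2 ligand angiopoietin-2, and Ccl2, which encodes a monocyte chemokine, had the highest mean TPM over the 6 libraries among the targets described here, and their log2 fold changes of 0.23 and 0.32 did not pass (edgeR adjusted p values of 0.0966 and 0.0992). Both passed in edgeR without Veh replicate 3, with adjusted p values of 0.0222 and 0.00275, and with DESeq2, with 0.0253 and 0.0158. The median over the 10 tested targets was 0.27, and the list mixes genes that these factors induce with genes that they repress. With single libraries left out, the adjusted p reached 0.0799 for Thbd, 0.0564 for Sele, 0.0799 for Vcam1 and 0.189 for Plat. The call was lost without each of Hcy replicates 1 to 3 for Sele, each library but Hcy replicate 1 and Veh replicate 3 for Thbd, each but Hcy replicate 2 and Veh replicate 3 for Vcam1, and each but Veh replicate 3 for Plat.

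**Figure D3:**
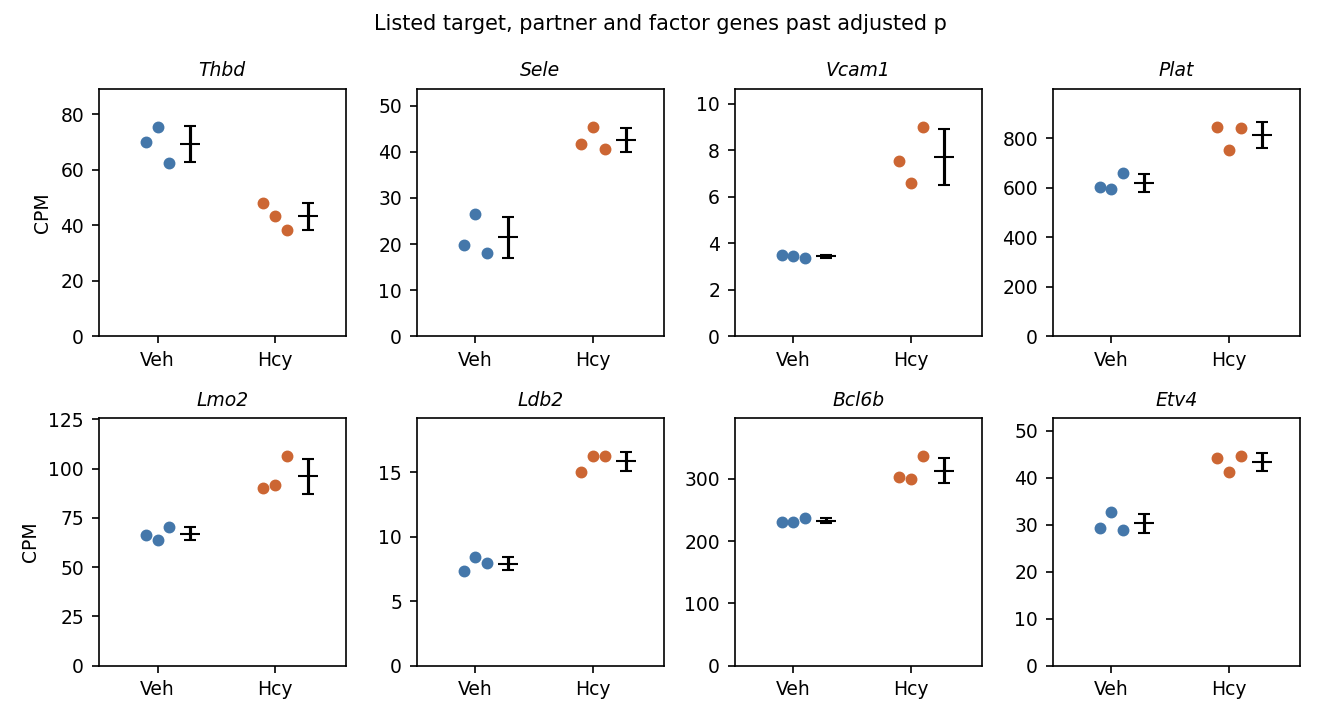
CPM of Thbd, Sele, Vcam1, Plat, Lmo2, Ldb2, Bcl6b and Etv4 (linear axes from 0) in each Veh and Hcy library, as points, with the mean and SD of the 3 libraries beside them. Thbd is lower in every Hcy library and the other 7 genes are higher, as with Ldb2 at 7.91 CPM in Veh and 15.8 CPM in Hcy.

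Some contractile and epithelial transcripts fell in Hcy as well. Of 11 pericyte and smooth muscle markers, 3 fell and 8 did not pass, and in estimate 5 were higher and 6 lower, with a median of -0.04. Tagln, which encodes the actin-binding protein transgelin, had a log2 fold change of -0.88, Acta2, smooth muscle actin, one of -0.64, and Cnn1, calponin, one of -1.39. Tagln and Cnn1 passed in all 6 fits that leave out a library, Acta2 without Veh replicate 2 or 3 only. The summed level of the list was 991 to 1004 TPM in Hcy and 1676 to 1882 TPM in Veh. The markers that define mural cells were low in both groups, Pdgfrb at 1.64 ± 0.620 CPM in Veh and 2.72 ± 0.918 CPM in Hcy, Myh11 at 1.23 ± 0.432 and 1.20 ± 0.292 CPM, and Rgs5 at 0.187 ± 0.103 and 0.469 ± 0.156 CPM (SD, n = 3). Of 12 epithelial markers, 4 were tested, and Krt7 (log2 fold change -0.61) and Cldn4 (log2 fold change -1.92) fell, with a summed level of the list of 348 to 365 TPM in Hcy and 508 to 567 TPM in Veh. Krt7 did not pass without Hcy replicate 1, 2 or 3, and Cldn4 passed without Veh replicate 3 only. Krt8 stood at 0.199 TPM in Veh, and Esrp1 had 0 counts in every library. The part of these transcripts in the fall of Klf4 and Klf2 was not tested, and in such bulk samples fewer cells with a transcript and less of it per cell cannot be told apart.

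Gata2, a zinc finger factor on chromosome 4 from 120133713 to 120142488, had 722, 671 and 602 counts in Veh and 407, 464 and 596 counts in Hcy. In CPM these were 42.9, 42.8 and 41.7 in Veh and 29.2, 31.2 and 35.6 in Hcy. All Hcy libraries were below all Veh libraries, which differed from one another by a coefficient of variation of 1.55%. The log2 fold change was -0.41 with a 95% interval of -0.61 to -0.20 (edgeR adjusted p = 0.0605). DESeq2 gave Gata2 an adjusted p of 0.0184, and edgeR gave 0.0230 without Veh replicate 3 and 0.0407 with no filter on low counts. When single libraries were left out, the adjusted p ran up to 0.229.

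Tal1, a bHLH factor on chromosome 5 from 133864798 to 133878830, had 28.6, 32.0 and 25.5 CPM in Veh and 34.5, 30.8 and 28.6 CPM in Hcy. The groups overlapped, and the log2 fold change was 0.13 (95% interval -0.13 to 0.38, edgeR adjusted p = 0.711). Of 16 genes listed as partners or relatives of TAL1 and GATA2, 13 were tested, and 2 passed an adjusted p of 0.05, both higher in Hcy. Lmo2, the LIM-only bridge between TAL1 and GATA factors, had 66.5, 63.8 and 70.3 CPM in Veh and 90.1, 91.8 and 106 CPM in Hcy. Lmo2 rose by a log2 fold change of 0.52 (standard error 0.09, edgeR adjusted p = 0.0183), without overlap. Ldb2, which encodes a LIM-domain-binding protein, had 7.36, 8.41 and 7.96 CPM in Veh and 15.0, 16.3 and 16.2 CPM in Hcy. Ldb2 rose by a log2 fold change of 1.00 (standard error 0.12, edgeR adjusted p = 0.00433) and was the only gene of the transcription factor and partner lists to meet both thresholds, at the edge of the fold-change limit.

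Tcf4, which encodes an E protein that pairs with TAL1, was among the most abundant partners and had a log2 fold change of 0.19, which did not pass and was 0.10 without Veh replicate 3. The partner list held 9 genes higher and 4 lower in Hcy, with a median of 0.19. Ldb2 passed the adjusted p in all 6 fits that leave out a library, but its log2 fold change was under the limit, at 0.98, 0.98 and 0.95, without Hcy replicate 2, Hcy replicate 3 or Veh replicate 1, and at 0.99 with a prior count of 2. Lmo2 passed the adjusted p without Veh replicate 3 only, reaching 0.0961 in the other fits.

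Mef2c, a MADS-box factor on chromosome 2 from 11658568 to 11822787, had 36.9, 41.8 and 37.5 CPM in Veh and 39.9, 42.7 and 40.3 CPM in Hcy. The Veh and Hcy libraries were interleaved, and the log2 fold change was 0.08 (95% interval -0.11 to 0.27, edgeR adjusted p = 0.760). Among 14 MEF2, ERK5 and class IIa HDAC genes, the route by which flow reaches Klf2 and Klf4, 13 were tested and 0 passed with edgeR or DESeq2. At an unadjusted p of 0.05, 2 passed. Pdcd10 and Ccm2, genes of the cerebral cavernous malformation complex that restrains this route, were the most abundant and had log2 fold changes of -0.04 and -0.01. The gene of ERK5 itself, Mapk7, had 0 counts in every library, and whether its row could collect reads was not tested.

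Among 20 other endothelial factors, 17 were tested and 1 passed. Bcl6b, a zinc finger repressor enriched in endothelium, had 231, 232 and 237 CPM in Veh and 302, 300.2 and 337 CPM in Hcy. It rose by a log2 fold change of 0.43 (standard error 0.07, edgeR adjusted p = 0.0168), and the adjusted p reached 0.113 when libraries were left out, passing without Veh replicate 3 only. Epas1, which encodes the hypoxia factor HIF-2alpha and was the most abundant of the list, stood at 563 TPM in Veh and 564 TPM in Hcy and had a log2 fold change of -0.02.

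**Figure D4:**
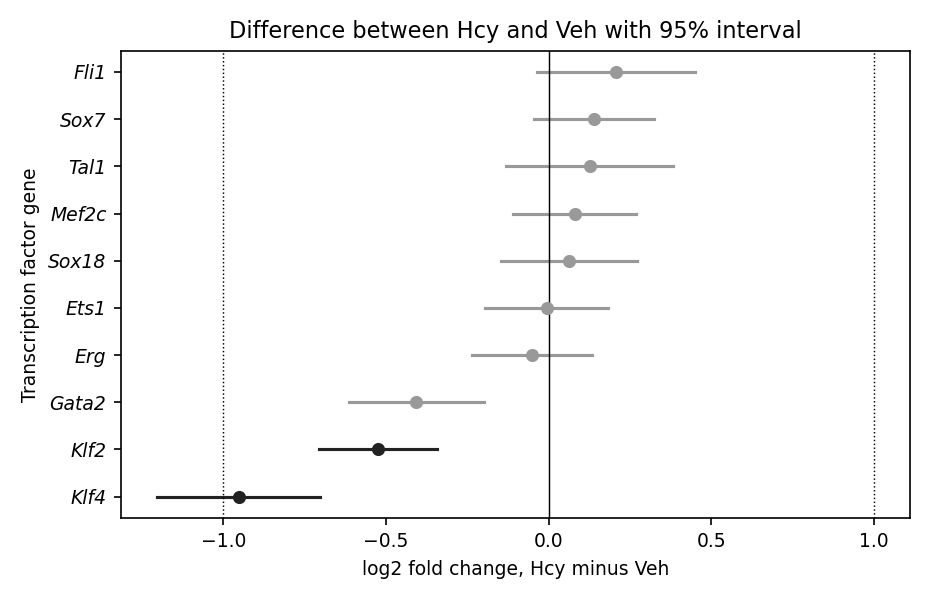
Log2 fold change of each factor, Hcy minus Veh, as points with the 95% interval as bars, in black for the 2 factors past an adjusted p of 0.05 and in grey for the other 8, with dotted lines at log2 fold changes of -1 and 1. The intervals of Klf4, Klf2 and Gata2 lie below 0, and the interval of Klf4, from -1.20 to -0.70, crosses the dotted line.

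The 7 factors other than Klf4, Klf2 and Gata2 had 95% intervals that all lay between -0.23 and 0.45, so a 2-fold change in either direction fell outside each interval. Leaving out Veh replicate 3 moved the log2 fold changes of all 7 downwards, to -0.12 for Erg, -0.08 for Ets1, 0.09 for Fli1, 0.07 for Sox7, 0.03 for Sox18, 0.05 for Tal1 and 0.06 for Mef2c, and those of Klf4, Klf2 and Gata2 to -0.97, -0.52 and -0.42. The differences of Klf4, Klf2 and Gata2 were thus of about the same size with and without the library that stood apart.

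**Figure D5:**
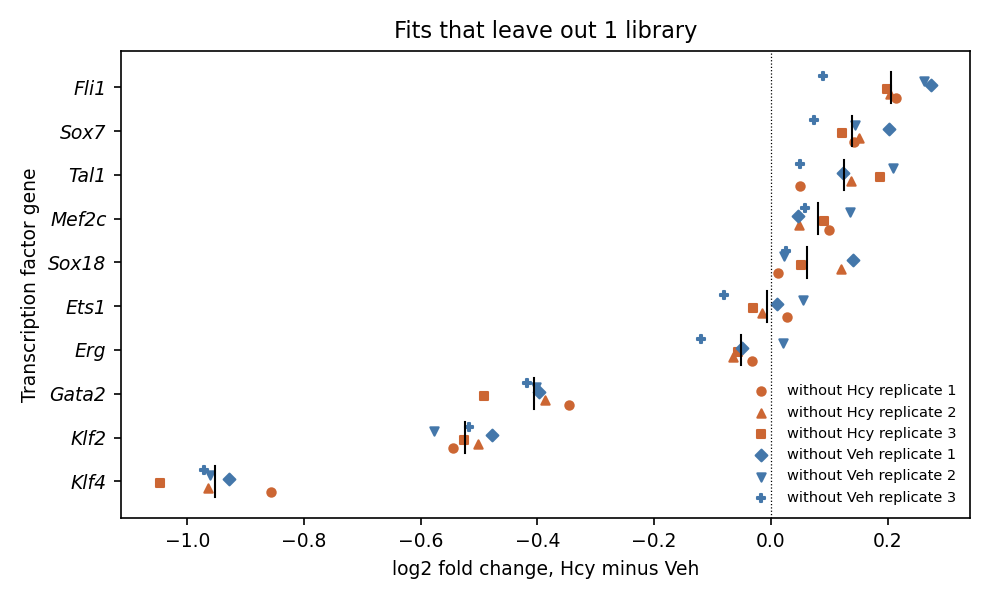
Log2 fold change of each factor, Hcy minus Veh, in the 6 fits that leave out 1 library (symbols, coloured by the group of the library left out), with the fit of all libraries as a black line. Klf4 stays between -1.05 and -0.86, Klf2 between -0.58 and -0.48 and Gata2 between -0.49 and -0.35, while Erg and Ets1 change sign.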

How the data were processed

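For the 6 rBMEC libraries, the authors deposited unnormalized read counts for each gene, beside its length and position. The submitters' processing notes name HISAT2 2.2.1, StringTie 2.2.3, featureCounts 2.0.6 and DESeq2 1.42.0 without stating their order. Whether counting used the strand is not given in the sources used here. A deposited table of the authors' own comparison, with normalized values, fold changes and p-values, was not used.

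Genes with a sum of 10 or more counts over the 6 libraries were scaled with TMM factors (0.977 to 1.02) and compared with edgeR 4.0.16 (quasi-likelihood test, condition only, R 4.3.3), with Benjamini-Hochberg adjustment over all genes tested. "Passed", "rose" and "fell" refer to an adjusted p of at most 0.05, and the study's further fold-change limit is named where used. CPM were TMM-scaled, and TPM used the deposited gene lengths. Standard errors were derived from the F statistic. DESeq2 was an alternative, run on the same counts. Scripts were tested on simulated data.

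The factors, lists and markers were chosen with earlier results of these data known. Named genes were the factors, in each list of factors, partners or targets those past an adjusted p of 0.05 and the 2 of highest TPM, and in each marker list those past both thresholds, the 3 of highest TPM among those tested and endothelial genes at 0. Outside this rule, Nos3, Edn1, Vwf, Kdr, Slc7a5, Lsr, the mural markers of low level, genes at 0 in other lists, Robo4 and Dll4 were named after their values were seen. Of the genes first listed, 2 are not reported here.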

Additional observations from a re-analysis of the deposited data

How the results depend on the processing

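Of the 14603 genes, 71 met both thresholds with edgeR. This count was 94 with DESeq2, the tool that the study used, and 109 with no filter on low counts. It was 341 with the adjusted p alone and 374 with the unadjusted p and the fold-change limit. With each library left out it ran from 39 to 112 (39 without Hcy replicate 1 or 2, 112 without Veh replicate 3). Of the 10 factors, 0 met both thresholds, 2 by the adjusted p alone and 0 to 1 with a library left out (1, Klf4, without Hcy replicate 3). The 2 factors past the adjusted p became 1 to 3 with a library left out (1 without Veh replicate 1 or Hcy replicate 1, 2 or 3, and 3 without Veh replicate 3), an alternative added after seeing the data. Of the listed genes, 4 met both thresholds, 15 by the adjusted p alone and 1 to 4 with a library left out (1 without Veh replicate 1, 2 without Hcy replicate 1, 2 or 3). Log2 fold changes near 0 changed sign with a library left out, running from -0.119 to 0.0204 for Erg, -0.0804 to 0.0550 for Ets1, -0.0142 to 0.160 for Sox13, -0.0791 to 0.0365 for Ccm2, -0.0861 to 0.00141 for Pdcd10, -0.0475 to 0.0162 for Epas1 and -0.0367 to 0.00848 for Itm2a. Klf4 kept its direction and passed in all 13 alternatives, with an adjusted p between 5.81e-10 and 0.0304. Klf2 kept its direction in all 13 and passed in 9.

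With the replicate number as a replicate block, 82 genes met both thresholds and 2 factors passed the adjusted p, Klf4 (log2 fold change -0.96, edgeR adjusted p = 0.00887) and Klf2 (log2 fold change -0.52, edgeR adjusted p = 0.0219). Results with the block were compared for 35 of the listed genes. Among these, it changed the side of the adjusted p threshold for Robo4 (log2 fold change 1.82, edgeR adjusted p = 0.0489) and Dll4 (log2 fold change 0.50, edgeR adjusted p = 0.0290). Libraries that share a number correlated by 0.0237, 0.166 and 0.0581 (deviations from the group mean, over 12296 genes). Hcy replicates 2 and 3 correlated best with the Veh library of the same number, and Hcy replicate 1 with Veh replicate 3 (0.129). With 3 libraries in each group, these correlations cannot decide whether the numbers mark pairs. The main fit did not take the numbers as pairs.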

Other observations

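Robo4, an endothelial receptor gene that ETS factors are known to activate, and Dll4, a Notch ligand gene downstream of ETS and SOXF factors, were chosen after their values had been seen. Robo4 had 5.40, 4.01 and 2.70 CPM in Veh replicates 1 to 3 and 23.8, 23.4 and 3.34 CPM in Hcy replicates 1 to 3. Hcy replicates 1 and 2 stood far above the Veh libraries, and Hcy replicate 3 lay within their range. The log2 fold change of 2.04 did not pass (edgeR adjusted p = 0.156), and it ran from 1.71 to 2.54 with a library left out, where the adjusted p ran from 0.00659, without Hcy replicate 3, to 0.411. With no filter on low counts the edgeR adjusted p was 0.0326, and with the replicate block it was 0.0489 (log2 fold change 1.82). Dll4 had 90.2, 73.2 and 72.4 CPM in Veh and 122, 98.8 and 112 CPM in Hcy, without overlap. Its log2 fold change of 0.50 gave an adjusted p of 0.0597 with edgeR and of 0.00184 with DESeq2. The edgeR adjusted p was 0.0477 without Veh replicate 1 and 0.0357 without Veh replicate 3. It was 0.0182 with no filter on low counts and 0.0290 with the replicate block.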
